A study of Mus musculus with 8 samples.

Results

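Layer 5 intratelencephalic (L5IT) neurons are excitatory neurons of the primary visual cortex (V1) whose axons stay within the telencephalon, reaching other cortical areas and the striatum. The nuclei described here are those that the deposited cell annotation calls L5IT, 3483 of 102330 nuclei or 3.40%. They came from 8 single-nucleus RNA-seq libraries of mouse V1 at postnatal day 21, with 2 animals in each of 4 groups, 1 male and 1 female. All animals carried a floxed glucocorticoid receptor (GR fl/fl) and had been injected at birth with AAV2/5, an adeno-associated vector, in which the astrocyte-specific GfaABC1D promoter drives either Cre (GR-KO) or a truncated, inactive Cre called ΔCre (GR-Con), together with a membrane-tethered EGFP. Mice of each vector were reared normally (NR) or in darkness until collection (DR). The receptor was thus aimed at in astrocytes and not in L5IT neurons. Library preparation followed a sort for GFP-negative nuclei. The sort did not remove all nuclei with the vector, since the paper shows vector-derived EGFP RNA in astrocytes of these libraries.

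Dark rearing from birth withholds the patterned visual input that V1 circuits use to mature, and excitatory neurons then alter the genes that encode receptors, ion channels, secreted neuropeptides and adhesion molecules. The glucocorticoid receptor, encoded by Nr3c1, is a nuclear receptor that binds corticosterone in mice and acts as a transcription factor. Astrocytes that respond to the hormone can reach neighbouring neurons through secreted and contact-dependent signals, and so L5IT nuclei were compared between vectors as well as between rearing conditions.

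The label was compared with Deptor, Il1rapl2 and Parm1, the markers given for this class. The cell types were clustered on these same counts, so levels that set L5IT nuclei apart describe the label and are not an independent check. Deptor, an inhibitor of mTOR kinase, averaged 225 CPM (UMIs scaled to a common library total) ± 58.7 (SD, n = 8 libraries), the highest of 20 cell types, and the next excitatory type was L4 at 25.9 CPM. Il1rapl2, a synaptic adhesion protein of the interleukin-1 receptor family, averaged 5786 ± 709 CPM, also the highest of 20 types, ahead of L6IT at 1439 CPM. Parm1 went against its use as a marker, since its 52.5 ± 10.1 CPM ranked only 8 of 20 and L5PT, the pyramidal tract neurons of the same layer, held 234 CPM. Foxo1, a forkhead transcription factor, was among the other genes that set L5IT nuclei apart from the remaining 7 excitatory types, with 125 CPM against at most 14.4 CPM. In single nuclei, Deptor had a UMI in 92.3% and Il1rapl2 in 99.9% of L5IT nuclei against 21.5% and 12.3% of oligodendrocyte nuclei, at median depths of 22868 and 8864 UMIs. Parm1 had one in 47.6% of L5IT nuclei against 60.6% of oligodendrocytes, so that its detection did not mark L5IT nuclei. After thinning every L5IT nucleus to 5000 UMIs the shares by library were 44.5 to 79.4% for Deptor, 98.9 to 100% for Il1rapl2 and 16.8 to 26.8% for Parm1.

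The libraries held 255 to 574 L5IT nuclei, 4.12 to 6.48% of excitatory nuclei, and 7188386 to 16335116 L5IT UMIs each, and while 1220 barcodes were found in more than 1 library among all nuclei, 0 were among L5IT nuclei. Markers of other classes were low: the sum of 4 astrocyte markers was 9.55 to 19.4 CPM and that of 3 inhibitory markers 2.64 to 6.49 CPM, with none of either list at 0 in all libraries. Oligodendrocyte markers, carried mostly by Mbp, summed to 76.6 to 158 CPM. The NR GR-KO male library stood apart. It had the highest levels of the activity-induced genes Fos (12.7 CPM against 0.684 to 2.64 elsewhere) and Arc (35.0 against 2.35 to 8.59), the largest share of nuclei with a Cre UMI, and 180 CPM of Robo1 against 13.0 to 25.9 in the other 3 NR libraries. Counts are therefore given with and without it.

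Nr3c1 itself was at 138 and 140 CPM in the NR GR-Con male and female, 143 and 122 in NR GR-KO, 143 and 115 in DR GR-Con, and 142 and 145 in DR GR-KO. The groups overlapped, and the GR-KO minus GR-Con difference was -0.06 on the log2 scale in NR (adjusted p = 1) and 0.17 in DR (adjusted p = 0.978), so that no loss of the receptor's RNA was detected in these neurons. A 3′ tag of this gene may lie outside the floxed exon, so its level does not measure recombination. Cre had a UMI in 0 of 1937 GR-Con nuclei, which allows up to 0.155% of nuclei with a Cre UMI at this depth and sets no limit on nuclei that carry or express it, and in 87 of 1546 GR-KO nuclei (5.63%), against 4 of 2693 oligodendrocyte nuclei (0.148%) of the same libraries. By library the GR-KO shares were 11.9% and 2.35% in the NR male and female and 1.71% and 2.33% in the DR male and female. Thinned to 5000 UMIs these became 2.35%, 0.392%, 0.570% and 0.521%. The ΔCre feature had a UMI in 72 GR-KO and 8 GR-Con nuclei, and since both features share sequence their reads cannot be told apart with certainty. EGFP was found in 21 of 3483 nuclei (0.603%).

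Dark rearing was first compared with normal rearing over both vectors, 4 libraries against 4, to ask which genes of L5IT neurons depend on visual experience. Osbpl3, an oxysterol-binding protein that moves lipids at membrane contacts, fell the most among genes with a mean of at least 5 on the log2 CPM scale, and Hunk, a kinase related to AMPK, fell with it. Rasgrf2, a calcium-dependent activator of Ras, rose. In all, 663 of 14043 genes were called (4.72%, the background for any list below), 302 higher in DR (2.15%) and 361 lower (2.57%), by edgeR's likelihood ratio test at an adjusted p under 0.05. The balance of directions was not stable: DESeq2 called 314 higher and 251 lower (565), the quasi-likelihood test 105 and 106 (211), and without the NR GR-KO male library 857 were higher and 603 lower (1460). Levels did not overlap between the 4 NR and the 4 DR libraries for 11.0% of all genes tested. Genes named for the size of their change were chosen among these, so their lack of overlap follows from the choice. Because UMIs were summed over nuclei, fewer nuclei expressing a gene and less RNA in each of them cannot be told apart in these sums.

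Osbpl3 stood at 512 and 537 CPM in the NR GR-Con male and female, 330 and 307 in NR GR-KO, 96.7 and 99.1 in DR GR-Con, and 192 and 113 in DR GR-KO. Every DR library lay below every NR library, and among NR libraries both GR-KO values were below both GR-Con values. The DR minus NR change was -1.74 ± 0.28 (log2, SE, adjusted p = 5.84e-07). The gene lies on chromosome 6 at 50293330 to 50456201 of GRCm38, on the minus strand. Hunk was at 173, 185, 91.2 and 157 CPM in the same order of NR libraries and at 80.1, 75.5, 35.6 and 68.3 in DR, again without overlap (-1.23 ± 0.23, adjusted p = 2.48e-05). Other genes with large decreases were Pkib, an inhibitor of protein kinase A (-1.12), Skap1 (-0.997), Chgb, a chromogranin of dense-core vesicles (-0.84), and Cadps2, which primes such vesicles for release (-0.77). Cadps2 averaged 642 ± 139 CPM in NR and 372 ± 11.3 in DR (SD, n = 4 each).

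Rasgrf2 was at 27.1, 28.8, 36.2 and 30.8 CPM in NR (GR-Con male and female, then GR-KO male and female) and at 58.8, 62.2, 74.6 and 54.3 in DR. The 2 groups were separate, and the change was 1.03 ± 0.13 (log2, adjusted p = 6.5e-12). Dscaml1, a homophilic adhesion protein that guides neurite spacing, rose most among genes at that level whose NR and DR libraries did not overlap (1.47 ± 0.23, adjusted p = 1.78e-07), from 27.1 ± 10.7 to 73.6 ± 23.4 CPM (SD, n = 4 each). Also higher were Adamts17, a secreted metalloproteinase (0.85), St3gal1, a sialyltransferase (0.82), and Pxdn, a peroxidase that crosslinks collagen IV (0.81). Of the 20 genes named for size here, 16 also passed the quasi-likelihood test and 20 passed in DESeq2, and all 20 were called without the NR GR-KO male library. The plot shows the levels of 8 called genes by library, and all but Rorb were separate between NR and DR.

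**Figure D1:**
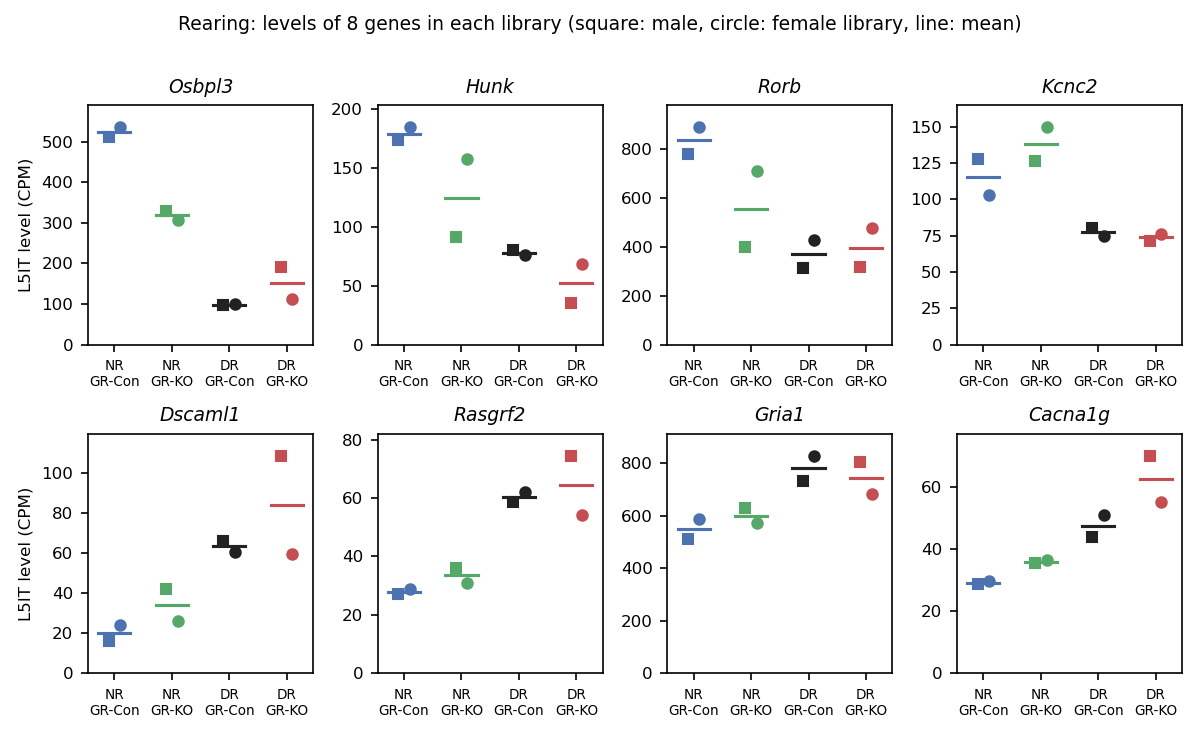
Levels of 8 genes in L5IT nuclei (CPM, linear axes from 0) in each of the 8 libraries, grouped by rearing and vector, with squares for male and circles for female libraries and a line at the mean of each group of 2. Osbpl3, Hunk and Kcnc2 lie lower and Dscaml1, Rasgrf2, Gria1 and Cacna1g higher in all 4 DR libraries than in all 4 NR libraries, whereas Rorb overlaps.

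Glutamate receptor genes moved in both directions. Among 24 ionotropic glutamate receptor subunits and their auxiliary proteins, 5 rose and 2 fell. Gria1, the GluA1 subunit of AMPA receptors, was at 511, 587, 628 and 571 CPM in NR and 730, 828, 805 and 684 in DR, with no overlap (0.41, adjusted p = 0.0135). Grid1, the delta receptor GluD1 that bridges synapses through cerebellins, rose from 340 ± 35.0 to 459 ± 20.3 CPM (SD, n = 4 each), and Grik4 and Grin2d, a kainate and an NMDA receptor subunit, also rose (0.89 and 0.76). Grik1, another kainate receptor subunit, fell from 12.7 ± 5.32 to 3.69 ± 1.77 CPM (-1.85, adjusted p = 0.000272), and the AMPA receptor auxiliary protein Shisa6 fell (-1.27) while its relative Shisa9 rose (0.79). The median change over the 24 genes was 0.16, beside -0.009 over all genes tested. Of these genes, Grid1 alone was also called by the quasi-likelihood test.

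Among GABA receptor genes, Gabra4, an α subunit, fell from 174 ± 18.2 to 132 ± 14.2 CPM (SD, n = 4 each; -0.39, adjusted p = 0.0274). Gabrg3, a γ subunit, rose by 0.58 on the log2 scale (adjusted p = 0.0344). For both genes the NR and DR libraries overlapped, and neither passed the quasi-likelihood test.

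Of 47 potassium channel genes, 4 fell and 1 rose. Kcnc2, a Kv3 channel subunit that shortens action potentials, fell from 127 ± 19.3 to 75.9 ± 3.64 CPM (-0.73, adjusted p = 5.32e-06), and Kcnj3, the GIRK1 channel opened by G proteins, from 459 ± 46.9 to 290 ± 44.7 (-0.66, adjusted p = 0.000227). Kcnk2, a background channel, and Kcnv1, a silent modulatory subunit, also fell, by 0.59 and 0.66 on the log2 scale. Of 29 sodium, calcium and HCN channel genes, Cacna1g, a T-type calcium channel, rose from 32.6 ± 3.96 to 55.01 ± 11.1 CPM (0.75, adjusted p = 5.45e-08), and Cacna1e, the R-type channel, rose by 0.33. Cacna1i, another T-type channel, fell (-0.53), as did Scn1a, the sodium channel Nav1.1 (-0.40).

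The activity-regulated program was compared over both vectors in its effectors and its transcription factors. Of 19 activity-regulated effectors tested, 4 fell and 0 rose: Pcsk1, a protease that cuts prohormones, Vgf and Scg2, precursors of secreted neuropeptides, and Rgs4, which ends signalling by G proteins. Pcsk1 was at 118, 135, 159 and 123 CPM in NR and 115, 91.0, 72.2 and 83.2 in DR (-0.57, adjusted p = 0.0168). The highest DR value lay just under the lowest NR value. Scg2 was at 13.2, 6.68, 11.3 and 6.35 CPM in NR and 4.48, 7.52, 4.45 and 3.21 in DR (-0.96, adjusted p = 0.0351), so that 1 DR library fell within the NR range. None of the 4 was called by the quasi-likelihood test, without the DR GR-KO male or without the DR GR-KO female library, and Vgf and Scg2 were also not called without the NR GR-KO male. The median of the 19 effectors was -0.115. None of 12 immediate early transcription factors tested was called, with a median of -0.702, and the NR GR-KO male had the highest Fos, Egr1 (49.0 CPM), Npas4 (34.8) and Junb (59.6) values.

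The promoters of Scg2 and Pcsk1 are shown because both fell together and hold TGACGTCA, the palindromic cAMP response element bound by CREB-family factors. The sequences are RefSeq's for GRCm38.p6, from 250 bases before to 50 after the gene start, written 5′ to 3′ on the gene's strand with the element in capitals. They lie at chr1:79439977-79440276 on the minus strand for Scg2 and at chr13:75089607-75089906 on the plus strand for Pcsk1.
Scg2: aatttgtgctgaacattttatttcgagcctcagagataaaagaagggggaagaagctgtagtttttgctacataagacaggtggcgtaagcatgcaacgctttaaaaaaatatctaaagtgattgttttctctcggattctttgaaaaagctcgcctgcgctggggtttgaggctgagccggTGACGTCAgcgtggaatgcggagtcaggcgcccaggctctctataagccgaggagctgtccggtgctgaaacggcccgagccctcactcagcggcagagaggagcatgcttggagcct
Pcsk1: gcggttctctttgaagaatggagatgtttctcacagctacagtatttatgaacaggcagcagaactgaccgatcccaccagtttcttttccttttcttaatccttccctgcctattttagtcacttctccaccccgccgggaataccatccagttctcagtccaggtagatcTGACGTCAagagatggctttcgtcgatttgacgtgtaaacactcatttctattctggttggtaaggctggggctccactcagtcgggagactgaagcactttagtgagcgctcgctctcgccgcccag
The element was found in 4 of the 15 effector genes with a promoter in the table (26.7%: Dusp1, Pcsk1, Plk2 and Scg2), in 0 of 12 immediate early transcription factors and in 588 of all 32851 promoters (1.79%). Dusp1 and Plk2 were not called in this comparison. A match describes these letters only.

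Genes of axons and cell contacts changed in both directions too. Of 50 axon guidance ligands and receptors, 4 rose and 2 fell over both vectors. Plxna1 and Sema4a, a semaphorin receptor and a semaphorin, rose by 0.73 and 0.67, Slit1, a ligand of Robo receptors, and Sema4d rose by 0.45 and 0.37, and Ntng2, netrin-G2, fell from 45.5 ± 10.0 to 29.8 ± 2.56 CPM (-0.60), as did Epha8 (-1.05). Of 25 axon growth proteins, the neurofilament subunits Nefl (-0.79) and Nefm (-0.99) and the neuronal tubulin Tubb3 (-0.43) fell, and Dpysl5 (CRMP5) rose (1.28). Among 49 synapse organizers Lrfn2 rose from 158 ± 8.95 to 234 ± 36.7 CPM (0.56, adjusted p = 0.00125), with Igsf21 (2.08) and Ptprf (0.42), while Flrt2 (-0.41) and Slitrk4 (-0.49) fell. Of 35 vesicle and release proteins 4 rose, among them the synapsins Syn2 (0.44) and Syn3 (0.56), and Slc17a6, the vesicular glutamate transporter VGLUT2, fell (-0.47).

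Smaller lists held few calls. The serotonin receptor Htr2a was the only one of 28 neuromodulator and peptide receptors called, and it fell (-0.81, adjusted p = 0.0128). Pde2a and Adcy1, which break down and make cyclic nucleotides, rose (0.85 and 0.36), and Pde10a fell from 1093 ± 192 to 718 ± 48.4 CPM (SD, n = 4 each). Of 16 cholesterol genes only Idi1 was called, lower (-0.67), with a list median of -0.401. Sgk1 and Nfkbia, both known glucocorticoid-induced genes, fell (-0.41 and -0.74) and were the only ones called of 12 corticosteroid receptors and targets. Layer markers moved as well: Rasgrf2 and Otof, listed for L2/3, rose, and Rorb, listed for L4, fell (-0.83, adjusted p = 0.0212). The summed L2/3 markers, carried mostly by Rasgrf2, were 30.7 to 42.6 CPM in NR and 60.8 to 83.1 in DR. The L4 markers, carried almost entirely by Rorb, summed to 402 to 896 and 316 to 479. Cux2, also listed for L2/3, averaged only 4.88 CPM in L5IT nuclei beside 373.5 in L2/3 nuclei. The part of these layer markers in the other changes was not tested. Of the 65 list members called over both vectors, DESeq2 called 53, and 23 passed the quasi-likelihood test. Without 1 library the number was 21 (DR GR-KO male), 30 and 34 (NR GR-Con female and male), 33 (NR GR-KO female), 37 and 43 (DR GR-Con female and male), 54 (DR GR-KO female) or 59 (NR GR-KO male).

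Within GR-Con animals, 2 libraries against 2, dark rearing was compared without any effect of Cre. The genes that rose most among those with a mean log2 CPM of at least 5 and no overlap were Rspo2, a secreted enhancer of Wnt signalling, Zfp804b, a zinc finger protein, and Robo1, the receptor for Slit ligands that steers axons. Of 14278 genes 877 were called (6.14%), 584 higher (4.09%) and 293 lower (2.05%). DESeq2 called 448 and 421 passed the quasi-likelihood test, while 418 and 490 were called without the NR GR-Con male and female libraries. These libraries also enter the comparison over both vectors.

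Robo1 was at 14.6 and 13.0 CPM in NR GR-Con and 167 and 96.4 in DR GR-Con, at 3.26 ± 0.30 on the log2 scale (adjusted p = 2.65e-25). In GR-KO libraries it was at 180 in the NR male but 25.9 in the NR female, and at 137 and 37.5 in DR. The GR-KO groups thus overlapped entirely, and the change there was -0.22 (adjusted p = 0.983). Epha3, an ephrin receptor, was at 61.3 and 47.0 CPM in NR GR-Con and 197 and 124 in DR GR-Con (1.57, adjusted p = 8.22e-08), with 217 and 57.7 in NR GR-KO and 176 and 92.0 in DR GR-KO. Gap43, a growth cone protein, was at 51.2 and 56.3 CPM in NR GR-Con and at 141 and 100.3 in DR GR-Con (1.17, adjusted p = 8.13e-07), with 139 and 60.8 in NR GR-KO and 128 and 112 in DR GR-KO. The paper reports these axonal genes as raised in neurons when astrocytes lose the receptor, and a similar set as raised by dark rearing. The genes were thus picked on these same libraries, so their count of 3 called of 3 here is not independent evidence of a direction. None of the 3 was called in another comparison when all L5IT nuclei and libraries entered, in fits without a sex term. The genes lie on chromosome 16 of GRCm38, Robo1 at 72308306 to 73046095, Epha3 at 63543534 to 63864175 and Gap43 at 42248442 to 42340651.

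Several guidance and adhesion genes rose with them in GR-Con. Of 51 axon guidance genes 10 rose and 2 fell, among the former Sema3e (2.87, adjusted p = 1.6e-13), a repulsive semaphorin, and Ntng1, netrin-G1 (2.51, adjusted p = 4.3e-10). Sema3e was at 11.8 and 13.1 CPM in NR and 122 and 59.0 in DR. Cdh13, a cadherin without a cytoplasmic part, rose from 18.2 ± 6.71 to 129 ± 27.7 CPM, and Ntrk3, the receptor of neurotrophin-3, from 22.3 ± 4.73 to 142 ± 12.3 CPM (SD, n = 2 each). Of 49 synapse organizers 6 rose and 0 fell, and of 47 potassium channels 7 rose and 3 fell. On the other side, Osbpl3 fell by 2.42 (± 0.15, adjusted p = 1.11e-57) and Rorb, a nuclear receptor that specifies layer 4 fate, went from 782 and 893 CPM to 315 and 428 (-1.18, adjusted p = 2.65e-08). Gm10635, a non-coding transcript that was among the leading genes of L5IT nuclei, fell by 2.29. Nr3c2, the mineralocorticoid receptor, rose from 5.65 and 4.77 CPM to 25.8 and 13.5 (1.92, adjusted p = 3.99e-06). None of 19 activity-regulated effectors was called here, with a median of -0.072. Of 12 immediate early transcription factors 3 were called (median 0.09), Nr4a3 (3.08, adjusted p = 1.15e-06) and Jun (1.17, adjusted p = 0.0301) higher and Npas4 lower (-0.90, adjusted p = 0.000598). The vascular marker Dcn was called higher (4.31), and the vascular marker sum was 0.705 to 1.43 CPM in 3 NR libraries, 9.55 in the NR GR-KO male and at least 5.29 in each DR library. Where it was high, the sum was carried mostly by Dcn. Over the 8 libraries Dcn averaged 3.3 CPM, and the other list members Flt1, Cldn5 and Rgs5 averaged 0.35, 0.23 and 0.47 CPM. Whether Dcn marks vascular RNA here was not tested.

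The genes with the largest increases were not spread evenly over L5IT nuclei. After these results were seen, nuclei with at least 4 Zfp804b UMIs per 10000 UMIs were set apart as Zfp804b-high. The class is a range set by a threshold on 1 gene and is given no cell type name: 261 of 3483 nuclei had between 2 and 8 UMIs per 10000, close to the threshold. Zfp804b-high nuclei were 1.52% and 1.42% of L5IT nuclei in the NR GR-Con male and female, 29.5% and 3.92% in NR GR-KO, 35.9% and 13.4% in DR GR-Con, and 21.9% and 9.04% in DR GR-KO, 569 nuclei or 16.3% in all. The 95% Wilson intervals of the NR GR-Con shares reached at most 3.27%, which covers counting error over nuclei and not the spread between animals. Zfp804b was among the genes that rose most in DR GR-Con, so a larger share there follows from the choice of gene. The male share was above the female share with either vector in DR and with GR-KO in NR, while both NR GR-Con libraries held 6 such nuclei and at a threshold of 2 the female had the larger share (3.28% and 7.78%). The share of nuclei with any Zfp804b UMI was 21.2 to 56.8% by library and 10.4 to 43.0% after thinning to 5000 UMIs, against 10.8% of oligodendrocytes (5.72 to 23.2% by library). Median depth was 27698 UMIs in Zfp804b-high and 22206.5 in the other nuclei.

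**Figure D2:**
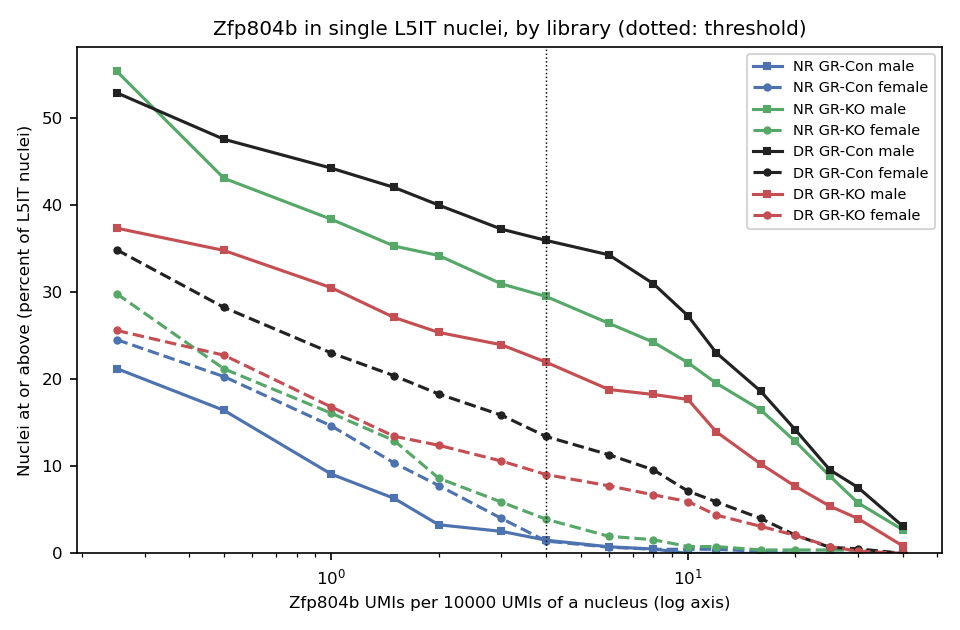
Percent of L5IT nuclei in each library (vertical axis) with at least the number of Zfp804b UMIs per 10000 given on the horizontal log axis, solid lines for male and dashed lines for female libraries and the threshold of 4 dotted. The DR GR-Con, NR GR-KO and DR GR-KO male libraries lie highest across the range and both NR GR-Con libraries and the NR GR-KO female reach the threshold with under 4% of nuclei.

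Zfp804b itself is 1 of the 10 genes named for an increase in GR-Con, and the genes were chosen in libraries that differ in their share of Zfp804b-high nuclei, so the levels in both classes are a description. Within libraries, the other 9 increased genes were all higher in Zfp804b-high nuclei in 6 of 8 libraries and the 10 decreased genes all lower in 5 of 8. The exceptions were NR libraries with at most 10 such nuclei. Pooled over libraries, Robo1 stood at 397 CPM in Zfp804b-high against 25.6 in the other nuclei, Ntng1 at 397 against 31.1, Sema3e at 236 against 23.4 and Rspo2 at 152 against 15.7. Of the markers of the class, Deptor was at 67.4 against 250 CPM, Il1rapl2 at 2278 against 6439 and Parm1 at 58.6 against 52.1. Rorb, listed for L4, was at 99.8 against 612, while the excitatory genes Slc17a7 (186 against 204) and Camk2a (522 against 515) were close. As medians over nuclei, Il1rapl2 was at 20.4 UMIs per 10000 in Zfp804b-high and 63.6 in the other nuclei, Deptor at 0.483 and 2.30, Rorb at 0 and 5.64, and Robo1 at 2.56 and 0. Of the markers listed for L6IT, Osr1 was at 0.973 and 0.115 CPM, beside 10.4 in L6IT nuclei, and Car3 and Oprk1, at 0.0215 and 1.00 CPM in L6IT nuclei, are too low there to tell. Dcn was at 16.7 against 0.777 CPM, while the other vascular markers were low in both classes. These were Flt1 (0.304 against 0.389), Cldn5 (0.304 against 0.216) and Rgs5 (0.426 against 0.518). Of the markers listed for L5PT, Bcl11b was at 9.85 against 2.52 CPM, Fezf2 at 13.0 against 25.1 and Pou3f1 at 0.730 against 1.09. For comparison, L6IT nuclei held 502 to 1398 CPM of Zfp804b and 477 to 781 CPM of Robo1 by library. L5PT nuclei held 460 to 3030 CPM of Zfp804b and 1489 to 2419 CPM of Robo1. Which cells these nuclei are was not tested.

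The rearing comparison was repeated on the remaining nuclei, as an alternative chosen after seeing the data. Zfp804b rose in this comparison and removal took more nuclei from DR than from NR GR-Con libraries, so smaller increases of genes that vary with it follow from the construction. In GR-Con, 415 of 13624 genes were called (3.05%), and of the 584 genes higher in all nuclei 243 (41.6%) were called again, with the median change going from 1.25 to 0.71. Of the 293 lower genes 125 (42.7%) were called again. Robo1 changed by 1.58 (adjusted p = 3.35e-19), Epha3 by 0.85 (adjusted p = 0.00122) and Gap43 by 0.93 (adjusted p = 3.35e-06) in these nuclei. Rspo2 changed by 2.47 in place of 3.73 and Osbpl3 by -2.22 in place of -2.42. With nuclei under 1 Zfp804b UMI per 10000 only, Robo1 changed by 1.23 (adjusted p = 0.00127), Gap43 by 0.94 (adjusted p = 5.95e-06) and Epha3 by 0.65, no longer called (adjusted p = 0.0831). Cdh13, Ntrk3 and Ntng1 were no longer called either, Ntng1 with a change of 0.003. Over both vectors the remaining nuclei gave 970 of 13733 genes (7.06%), which included 89.4% of the 302 higher and 89.2% of the 361 lower genes and 57 of the 65 called list members.

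**Figure D3:**
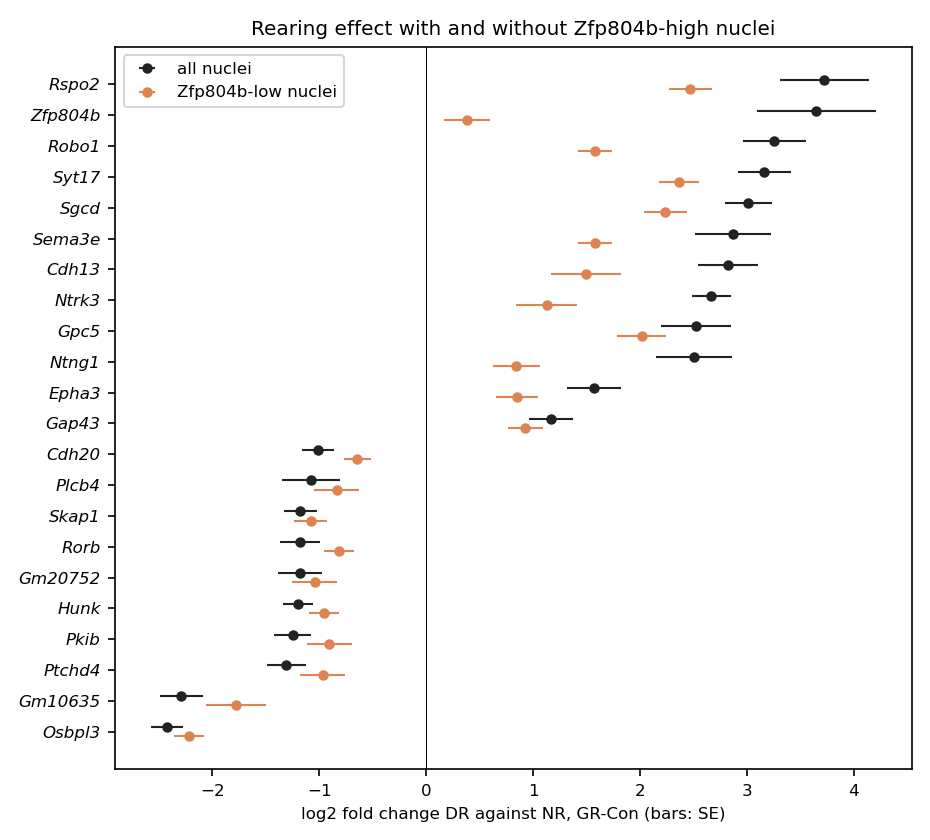
Log2 fold change of DR against NR in GR-Con libraries (horizontal axis, bars are standard errors) for the 20 genes named for size plus Epha3 and Gap43, in all L5IT nuclei (black) and in Zfp804b-low nuclei (orange). The 12 increases are smaller without the Zfp804b-high nuclei, which the selection on Zfp804b favours, with Robo1 at 1.58 in place of 3.26 and Ntng1 at 0.85 in place of 2.51, and the decrease of Osbpl3 is -2.22 in place of -2.42.

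Within GR-KO animals dark rearing called fewer genes, 288 of 13786 (2.09%), 154 higher (1.12%) and 134 lower (0.972%). With the quasi-likelihood test 0 passed (1911 at an unadjusted p under 0.05), with DESeq2 174 and with the sex of the libraries as a term 888. Crtac1, a secreted cartilage acidic protein that antagonizes Nogo receptors, rose and Wls, the carrier needed for Wnt secretion, fell. Crtac1 was at 71.4 and 63.2 CPM in NR and 167 and 164 in DR (1.30 ± 0.15, adjusted p = 9.42e-14), with tight pairs. Wls was at 67.5 and 111 CPM in NR and 17.4 and 29.0 in DR (-1.94 ± 0.35, adjusted p = 2.88e-05). Adamts2, a procollagen protease, rose from 30.4 ± 13.9 to 92.8 ± 6.14 CPM, and Gda, guanine deaminase, fell from 186 ± 19.7 to 94.2 ± 0.198 CPM (SD, n = 2 each). Osbpl3 fell here as well (-1.06, adjusted p = 0.00807). Pcsk1 and Rgs4 were the 2 effectors called of 19, both lower. The count was 796 without the NR GR-KO male library, where Robo1 changed by 1.73 (adjusted p = 0.0425), 625 without the NR GR-KO female (254 higher and 371 lower), and 31 and 62 without the DR GR-KO male and female.

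The GR-Con and GR-KO comparisons share no library, so their directions can be set side by side. Of the 877 genes called in GR-Con, 848 were tested in GR-KO and 603 (71.1%) changed with the same sign, against 60.7% of all 13703 genes tested in both. Of the 288 called in GR-KO, 221 of 285 (77.5%) had the same sign in GR-Con. Both comparisons called 62 genes, 58 in the same direction, Osbpl3, Dscaml1 and Rasgrf2 among them, and 4 in opposite directions, among them Man1a. Rspo2, Zfp804b and Robo1, which rose most in GR-Con among the named genes, had changes of -0.14, -0.22 and -0.22 in GR-KO, none of which passed.

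**Figure D4:**
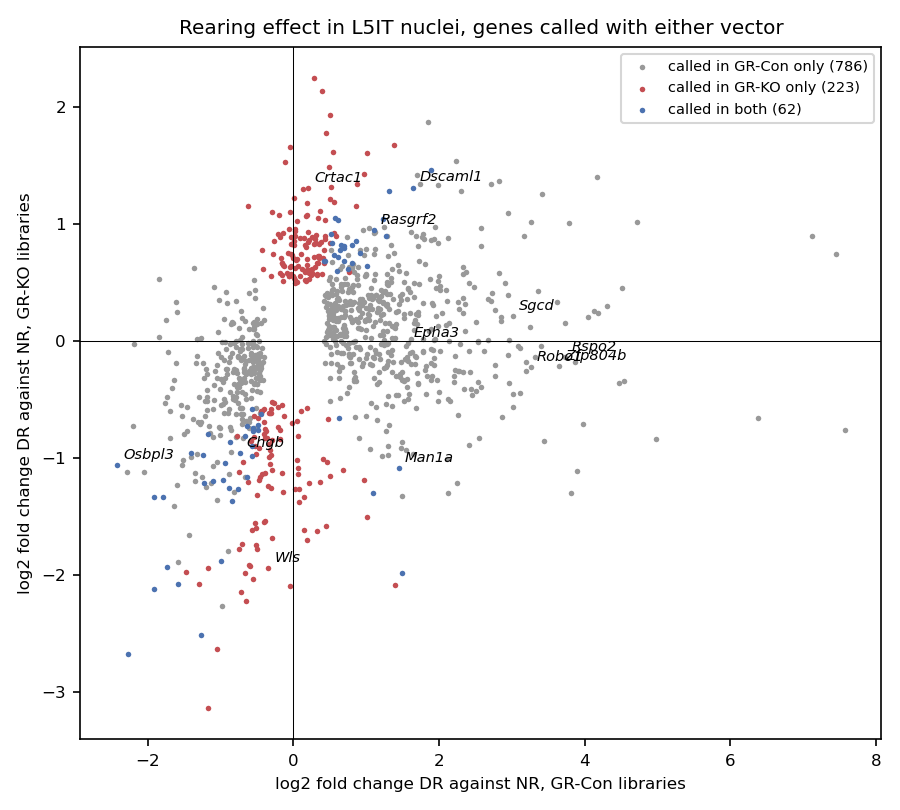
Log2 fold change of DR against NR in GR-Con (horizontal) and GR-KO (vertical) libraries for the 1071 genes tested in both and called in either, 786 in GR-Con only (grey), 223 in GR-KO only (red) and 62 in both (blue). Robo1, Rspo2 and Zfp804b lie far to the right near the horizontal axis, Osbpl3 lies in the lower left quadrant, and Wls lies low near the vertical axis.

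The vector was compared next, to ask how L5IT neurons differ when Cre had been given to astrocytes. In NR mice 29 of 13846 genes were called (0.209%), 24 higher in GR-KO (0.173%) and 5 lower (0.0361%). The quasi-likelihood test called 0 (763 at an unadjusted p under 0.05), DESeq2 18 and a fit with sex as a term 162, and 44 were called without the NR GR-KO male library, 876 without the NR GR-KO female and 5 and 6 without the NR GR-Con male and female. Man1a, a mannosidase that trims N-glycans in the Golgi, was at 25.5 and 29.4 CPM in GR-Con and 107 and 68.7 in GR-KO (1.69 ± 0.25, adjusted p = 1.05e-07). Gpc5, a glypican, was at 24.2 and 27.7 CPM in GR-Con and 117 and 64.5 in GR-KO (1.81, adjusted p = 4.17e-06). Both GR-KO libraries exceeded both controls for these genes, which the rule for naming them required. The share of all genes without overlap is not given for 2 libraries against 2. Kcnip4, a potassium channel-interacting protein, Pam, which amidates neuropeptides, and Mgat4c, another N-glycan enzyme, rose by 1.25, 0.74 and 0.94. Sgcd and Sema3e rose with adjusted p = 0.0494 each, and the male library was well above the female, at 365 and 118 CPM against 92.0 and 23.9. Osbpl3 fell (-0.71, adjusted p = 0.0143). Robo1 did not pass (2.89, adjusted p = 0.0578), nor did Epha3 (1.35, adjusted p = 0.578) or Gap43 (0.90, adjusted p = 0.579). The paper reports these axonal genes as induced in this comparison, and lists more genes for it in L5IT neurons than were called here. Their changes were positive here too, but none was called with all L5IT nuclei. The reason for the difference was not tested. In Zfp804b-low nuclei Robo1 passed with a smaller change (1.05, adjusted p = 0.000469), 13 of the 24 higher genes and 0 of the 5 lower genes were called again, and Osbpl3 was not (-0.54, adjusted p = 0.241). The restriction took 163 nuclei from the NR GR-KO male and 10 from the female, leaving Robo1 at 30.2 and 21.8 CPM. Robo1 varies with Zfp804b, so its smaller spread between these libraries follows from the construction, and this pass is not independent evidence.

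In DR mice the vectors differed in 149 of 14179 genes (1.05%), 87 higher in GR-KO (0.614%) and 62 lower (0.437%). DESeq2 called 57 and the quasi-likelihood test 0 (1341 at an unadjusted p under 0.05), and with sex as a term there were 407. Counts without a library were 391 without the DR GR-Con female (185 higher and 206 lower), 209 without the DR GR-Con male (86 and 123), 78 without the DR GR-KO male and 25 without the DR GR-KO female. Wls was at 89.0 and 56.5 CPM in GR-Con and 17.4 and 29.0 in GR-KO, the largest named decrease (-1.63 ± 0.32, adjusted p = 0.000187). Etv1, a transcription factor of layer 5 neurons, was at 345 and 294 CPM in GR-Con and 177 and 181 in GR-KO (-0.83, adjusted p = 0.000151). Arhgap25, a Rac GTPase-activating protein, was at 32.3 and 47.2 CPM in GR-Con and 83.3 and 92.3 in GR-KO (1.16, adjusted p = 1.63e-05). None of these pairs overlapped, which the rule for naming these genes required. Pkig, a protein kinase A inhibitor, rose from 112 ± 5.02 to 186 ± 2.90 CPM and Galnt9, a glycosyltransferase, from 200.1 ± 26.2 to 353 ± 4.17 (SD, n = 2 each). The oligodendrocyte marker Mbp was also higher in GR-KO (0.74, adjusted p = 4.36e-05), and the sum of the 3 oligodendrocyte markers was 96.1 and 95.3 CPM in DR GR-Con and 158 and 141 in DR GR-KO, whose part in the other changes was not tested. Robo1, Epha3 and Gap43 changed by -0.60, -0.26 and 0.002, with adjusted p of 0.951, 0.999 and 0.999.

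**Figure D5:**
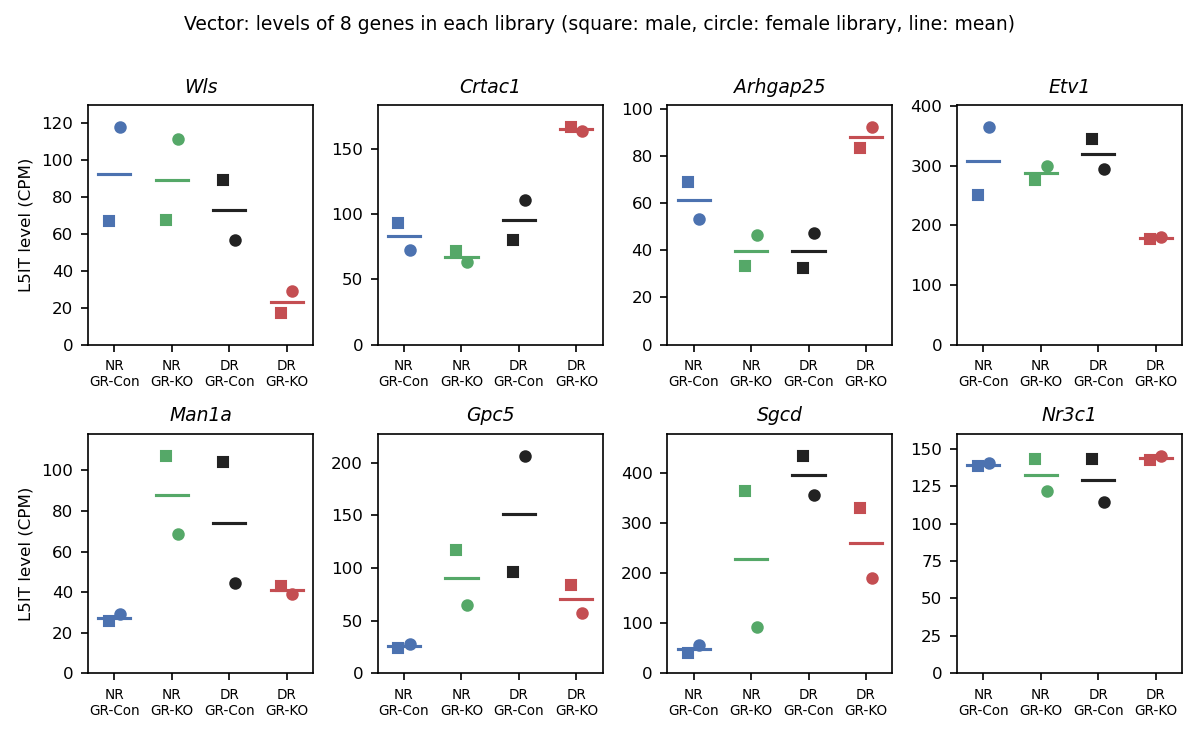
Levels of 8 genes in L5IT nuclei (CPM, linear axes from 0) in each of the 8 libraries, grouped by rearing and vector, with squares for male and circles for female libraries and a line at the mean of each group of 2. Wls and Etv1 are lowest and Crtac1 and Arhgap25 highest in DR GR-KO, Man1a is high in both NR GR-KO libraries and in the DR GR-Con male, and Nr3c1 is level between 115 and 145 CPM.

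The vector's effect was not the same in NR and DR for 60 of 14384 genes (0.417%) by a test of the difference itself, the GR-KO minus GR-Con change in NR minus that in DR. It was larger in NR for 43 (0.299%) and smaller for 17 (0.118%). The quasi-likelihood test called 0 of them (1357 genes at an unadjusted p under 0.05), DESeq2 called 32 genes, a fit with sex as a term 300, and 42 were called without the NR GR-KO male library. Counts without other libraries ran from 13 without the NR GR-Con male to 534 without the NR GR-KO female. Rspo2 (3.87 ± 1.01, adjusted p = 0.0369) and Sema3e (3.52 ± 0.86, adjusted p = 0.0167) had the largest values among called genes with a mean log2 CPM of at least 5. Man1a (2.54, adjusted p = 0.00146) and Gpc5 (2.89, adjusted p = 0.00028) had positive terms. Of these genes, DESeq2 called Gpc5 but not Rspo2, Sema3e or Man1a. Gpc5, for which GR-KO exceeded GR-Con in NR, was at 95.7 and 207 CPM in DR GR-Con and 83.3 and 57.5 in DR GR-KO. Arhgap25 had a negative term, with 69.1 and 53.1 CPM in NR GR-Con and 33.3 and 46.3 in NR GR-KO before the DR values given above (-1.77 ± 0.33, adjusted p = 0.000363). Also negative were Crtac1 (-1.10, adjusted p = 0.00861), Dkk3, a secreted Wnt modulator (-1.20, adjusted p = 0.0183), and Osbpl3 (-1.36, adjusted p = 0.00797). Robo1 did not pass (3.49, adjusted p = 0.122). In Zfp804b-low nuclei it did (1.75, adjusted p = 0.0184), and Osbpl3 did not (-1.17, adjusted p = 0.0985). As in NR, the Robo1 pass rests on nuclei whose selection lowers its spread and is not independent evidence.

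The NR and DR vector comparisons share no library. Of the 29 genes called in NR, 5 of 28 tested in DR (17.9%) had the same sign there, and of the 149 called in DR, 59 of 142 (41.5%) had it in NR, against 46.5% of 13638 genes tested in both. None was called in the same direction in both, and 1 was called in opposite directions. With all 8 libraries and rearing as a term, 1 of 14043 genes was called (0.00712%). This was 2310022B05Rik, a protein-coding gene known by its clone name, at 15.1 and 14.8 CPM in NR GR-Con, 10.7 and 9.17 in NR GR-KO, 11.7 and 13.5 in DR GR-Con and 7.51 and 6.42 in DR GR-KO (-0.69, adjusted p = 0.0158). The quasi-likelihood test called 0 (745 at an unadjusted p under 0.05) and a fit with sex as a term 13, and 10 genes were called without the NR GR-KO male library and 51 without the NR GR-KO female.

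Last, the rearing change in L5IT nuclei was set against that in neighbouring excitatory types within the same libraries, with the library as a block. Against L4, which held 19022 nuclei, 47 of 17195 genes differed by the quasi-likelihood test (0.273%), 12 with a higher value in L5IT (0.0698%) and 35 with a lower one (0.204%). Cacna1g (0.64 ± 0.09, adjusted p = 0.0204), Rasgrf2 (0.64, adjusted p = 0.033) and the kainate receptor subunit Grik3 (0.75, adjusted p = 0.033) had more positive changes in L5IT. Ptprm, a receptor phosphatase mediating adhesion (-0.91, adjusted p = 0.0204), Shisa6 (-0.83, adjusted p = 0.0139), the semaphorin Sema3a (-1.14, adjusted p = 0.033) and Sgk1 (-0.79, adjusted p = 0.0356) had more negative ones. Cacna1g rose in L5IT from 28.6 to 36.4 CPM in NR to 43.8 to 70.1 in DR, and Ptprm went from 556 to 1036 CPM to 544 to 870. The L4 count rested on single libraries, as it was 0 without either NR GR-Con library, 1 without the NR GR-KO female or the DR GR-Con female, 5 and 23 without the DR GR-KO male and female, 152 without the DR GR-Con male and 675 without the NR GR-KO male. Against L6IT (6776 nuclei) and L5PT (3162 nuclei) 0 genes passed (0%), with 1439 and 1086 genes at an unadjusted p under 0.05 and 127 and 45 by the likelihood ratio test. These became 418 and 148 by the quasi-likelihood test without the NR GR-KO male library.

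Levels in other excitatory types are given as a description. Every DR library was below every NR library for Osbpl3 in L2/3 (64.7 to 122 CPM against 227 to 353), L6IT (135 to 284 against 361 to 529) and L5PT (111 to 203 against 234 to 541) and also in L6CT (121 to 237 against 244 to 399). The DR and NR ranges overlapped in L4 (171 to 388 and 362 to 595 CPM), L5NP (48.1 to 118 and 112 to 181) and L6b (299.8 to 679 and 611 to 1017). Robo1 in L2/3 was at 348 and 319 CPM in NR GR-Con, 933 and 483 in NR GR-KO, 1045 and 523 in DR GR-Con and 739 and 465 in DR GR-KO. In L6IT it stayed between 477 and 781 CPM.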

How the data were processed

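Single-nucleus RNA-seq of sorted DRAQ5+ GFP- nuclei (10x 3′ chemistry) gave 8 libraries. Per the submitters' processing notes the authors used Cell Ranger 8.0.1 with mm10 and Seurat 5.3.0, and removed nuclei of low or very high gene number, doublets and clusters without markers before deposit. The deposited matrix holds raw UMI counts for 26711 features, and the deposited cell table holds each nucleus's cell type, library and percent of mitochondrial counts as computed by the authors. Column sums matched the cell table in 102330 of 102330 nuclei. There were 0 columns of samples left unmapped. Library names carry the sex and not the replicate number, so libraries were tied to groups only.

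UMIs of L5IT nuclei were summed per library. Genes were kept with edgeR's filterByExpr (edgeR 4.0.16, R 4.3.3), scaled by TMM and tested within L5IT by the likelihood ratio test (glmLRT), following the study, with Benjamini-Hochberg adjustment at 0.05. The comparisons between cell types used the quasi-likelihood test with the library as a block. CPM are from these sums. Alternatives were the quasi-likelihood test, DESeq2 1.42.0, another scaling, no filter, a shared dispersion, sex as a term, thinning and leaving out each library. The scripts were tested on simulated data. Named genes are the 10 of largest change in each direction (5 for the interaction and for differences between types) among called genes with mean log2 CPM of at least 5 and, within L5IT other than for the interaction, no overlap between groups, plus markers, the axonal genes and called members of 38 lists. Other genes named in the text were chosen after their values were seen. Members and lists were chosen with earlier results of these data known. With 2 animals per group, p-values measure the spread between these libraries, and intervals cover counting error only. Some genes that met the rule for naming are not reported here.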

Additional observations from a re-analysis of the deposited data

Results flagged for a closer look

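The effect of the vector differed between NR and DR by a test of the difference itself for the genes named in the report, on the log2 scale. The values were 3.87 for Rspo2, 3.52 for Sema3e, 2.89 for Gpc5, 2.81 for Sgcd and 2.54 for Man1a, and -1.77 for Arhgap25, -1.36 for Osbpl3, -1.23 for Pard3, -1.20 for Dkk3 and -1.10 for Crtac1.

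The effect of rearing differed between L5IT and L4 nuclei by 0.75 for Grik3, 0.64 for Cacna1g, 0.64 for Rasgrf2, 0.60 for Ppargc1a, the coactivator PGC-1α, and 0.49 for Gm17167, and by -1.14 for Sema3a, -0.91 for Ptprm, -0.83 for Shisa6, -0.82 for Mir670hg and -0.79 for Sgk1.

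Single libraries lay far from the other 3 of their rearing condition or vector in 17 of 178 pairs of gene and group. This was by Dixon's 95% criterion for 4 samples, whose rate of about 1 in 20 holds for 4 like samples. Each group of 4 mixed vectors or rearing conditions, and the genes were named from these same data, so that rate does not apply here. The NR GR-KO male library accounted for 12 of the 17 pairs, which are not independent of each other. In it Thsd4 was at 47.3 CPM, Robo1 at 180, Epha3 at 217, Gap43 at 139, Cdh13 at 105, Pde2a at 70.7, Syt17 at 46.9, Igsf21 at 29.9, Dpysl5 at 18.8 and Vgf at 7.04, above the other NR libraries, and Deptor at 150 and Mfap3l at 30.98 below them. The DR GR-KO male stood out for Dscaml1 (109 CPM), Osbpl3 (192), Plxna1 (25.5) and Scn1a (223), and the DR GR-KO female for Vgf (2.31).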

How the results depend on the processing

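No paired analysis was possible because the deposited cell table carries no replicate number for a replicate block. Sex, which is balanced in every group, was fitted as a term instead and gave 1046 calls for rearing in GR-Con, 911 over both vectors and 888 in GR-KO, and 162 for vector in NR, 407 in DR, 13 over both rearings and 300 for the difference of vector effects. The quasi-likelihood test gave 421 for rearing in GR-Con, 0 in GR-KO, 211 over both, and 0 for vector in NR, in DR, over both rearings and for the difference. DESeq2 gave 448, 174, 18, 57 and 32 for rearing in GR-Con and GR-KO, vector in NR and DR, and the difference. A dispersion shared over 8 libraries gave 522 for rearing in GR-Con, 19 for vector in NR and 77 in DR. RLE scaling gave 19 for vector in NR. Without the filter on low counts there were 2 for vector over both rearings, and 290, 92 and 29 against L4, L6IT and L5PT, for which the likelihood ratio test gave 338, 127 and 45.

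Both restrictions on Zfp804b were chosen after seeing the data. Zfp804b-low nuclei gave 415 calls for rearing in GR-Con, 727 in GR-KO, 285 for vector in DR, 5 over both rearings and 107 for the difference. Nuclei near 0 gave 292, 715, 249 and 10 for the first 4.

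Leaving out 1 library each gave 418 to 1043 for rearing in GR-Con, 31 to 796 in GR-KO, 195 (without the DR GR-KO male) to 1460 (without the NR GR-KO male) over both, 5 to 876 for vector in NR, 25 to 391 in DR, 1 to 51 over both rearings, 13 to 534 for the difference, and 0 to 675, 0 to 418 and 0 to 148 against L4, L6IT and L5PT. In GR-KO, where neither passed, rearing changed Robo1 by -1.41 (without the DR GR-KO male) to 1.73 and Epha3 by -0.68 (without the NR GR-KO female) to 1.19, both turning positive and passing without the NR GR-KO male. The cause was not tested. How depth per nucleus limits the calls at each level of expression was not tested.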
